A study of Mus with 51 samples.

Results

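The ribosome is built from ribosomal RNA and a set of ribosomal proteins that divide between a small subunit, which reads the messenger RNA, and a large subunit, which joins amino acids. The genes of the cytosolic set are among the most highly expressed genes of a cell, and their messenger RNAs are known to carry a terminal oligopyrimidine (TOP) start, through which the mTOR pathway governs their translation. Resting T cells hold few ribosomes, and a T cell that has met antigen makes many more before it divides. The genes described here were taken from the count table by symbol: Rpl or Rps followed by a number, with an optional a, l, x or y and a further number, together with Rplp0, Rplp1, Rplp2 and Rpsa. Symbols marked as pseudogenes with -ps were left out. This rule took 87 of 34923 features, of which 31 encode small subunit proteins, 47 are named as large subunit proteins (3 of them the P stalk, to which elongation factors bind) and 9 are paralogs or copies of a subunit gene. All 87 matched a RefSeq gene of the mm10 assembly, and 4 of them (Rps4l, Rpl6l, Rps3a2 and Rps3a3) are annotated there as pseudogenes although their symbols do not say so. They lie on 19 chromosomes, with 14 on chromosome 7.

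The cells were sorted from lymph node material of mice of strain B10.A that lack Rag2 and carry the 5C.C7 T cell receptor transgene, so that their T cells share a single receptor. All groups share this genotype. The labels give 6 sorting phenotypes: no peptide (NP), GP, and CD69-hi and CD69-lo cells with MCC or with MCC and GP, where MCC is the peptide from moth cytochrome c that the 5C.C7 receptor recognises and CD69 is a surface protein that appears soon after receptor signalling. The labels do not expand GP, while the title of the series speaks of endogenous self-peptides. Each phenotype was taken at 1, 6 and 24 h, which makes 18 groups and 51 libraries: 15 groups of 3, and groups of 2 for NP, GP and MCC CD69-lo at 6 h. The labels give no age, dose or culture condition and do not say whether the libraries of a group came from separate mice, so the p-values below measure only the spread between libraries, which may be technical.

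Libraries held between 29030 and 10278776 gene counts, with a median of 5436653. At 24 h the 3 libraries of MCC+GP CD69-lo cells stood apart, with 29030, 237390 and 301455 counts, a summed level of 10 T cell markers of 3551 to 7888 CPM (counts in 1000000 counts; single genes, unlike marker sums, are scaled by TMM factors) against 13640 to 15068 in NP at 24 h, and 16 myeloid and dendritic markers (Cd14 and Itgam at 0 among them) at 4340 to 6946 CPM against 562 to 907. T cell markers were present in every group and none was at 0. In these bulk libraries, fewer cells of a type and less RNA per cell cannot be told apart, and a CPM is a share of a library's RNA, not an amount per cell.

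In NP cells at 1 h the members spanned the whole range of expression per transcript length. By TPM, which counts transcripts in 1000000 after division by gene length, 61 members were at 1000 or more, 15 between 100 and 1000, 3 between 10 and 100, and 8 under 10, with a median over all members of 1376 TPM. Rplp1, a protein of the P stalk, had the highest level per length, 4810 ± 1244 TPM (SD, n = 3), and Rplp0, the base of that stalk, had 3752 ± 861 TPM. Rps27, a zinc finger protein of the small subunit, had 2768 ± 750 TPM. Among the paralogs, Rpl22l1 stood at 101 TPM, Rps27l at 41.1 TPM and Rpl7l1 at 34.7 TPM, each far under its partner (Rpl22 541 TPM, Rps27 2768 TPM and Rpl7 1433 TPM).

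A few core subunit genes were listed far under their fellows. Rpl24 had 4.66 TPM and Rpl13a 56.0 TPM in NP at 1 h, although both proteins are core parts of the ribosome. Rows for pseudogenes of Rpl23a held counts equal to 7.89% of those of Rpl23a itself, and the row for a pseudogene of Rpl13a 1.46%; no such row held a count for Rpl24. How the counting treated reads that match a gene and its copies is not given in the sources used here, so the levels of these genes are uncertain. The 243 rows for ribosomal protein pseudogenes together held 0.0226% to 0.0758% of a library's counts. Of the 87 members, 84 passed the filter on low counts and were tested. The other 3 are paralogs known from testis or muscle: Rpl3l had 30 counts over all libraries, Rpl39l 34 and Rpl10l 3.

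The members took 3.70% to 9.64% of a library's counts. In NP cells this share was 4.99% to 7.71% at 1 h, 4.54% and 6.78% at 6 h, and 3.94%, 4.09% and 5.83% at 24 h. In MCC CD69-hi cells it was 6.67% to 7.92% at 1 h, 6.11% to 7.25% at 6 h, and 7.08%, 7.38% and 7.54% at 24 h. The CD69-hi and NP libraries overlapped at 1 h and 6 h and did not overlap at 24 h, where the mean was 7.33% ± 0.236 (SD, n = 3) against 4.62% ± 1.05 (SD, n = 3), a ratio of 1.59. MCC+GP CD69-hi libraries at 24 h held 7.14% to 7.77%, all above the 4.59% to 5.99% of GP. MCC CD69-lo cells at 24 h, at 5.44% ± 0.899 (SD, n = 3), overlapped with NP.

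From library to library within a group the members moved together. For the 77 members with a mean of 50 CPM or more, the SD of their mean log2 CPM within groups was 0.27, nearly that of a single such member (0.29), and the median correlation between the deviations of 2 members was 0.84. The members are therefore not independent of each other, and a count of members that passed the test is not a count of separate events. The library with the lowest share of member counts also had the lowest share of mitochondrial counts in 14 of 18 groups, and the highest went with the highest in 12 of 18; the part of this common movement in the results was not tested. By runs of 18 wells in plate order, the share in MCC CD69-hi cells minus that in NP was +3.14, +3.29 and +1.71 percentage points at 24 h, -0.672 and +2.14 at 6 h, and -0.971, +0.280 and +1.69 at 1 h.

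**Figure D1:**
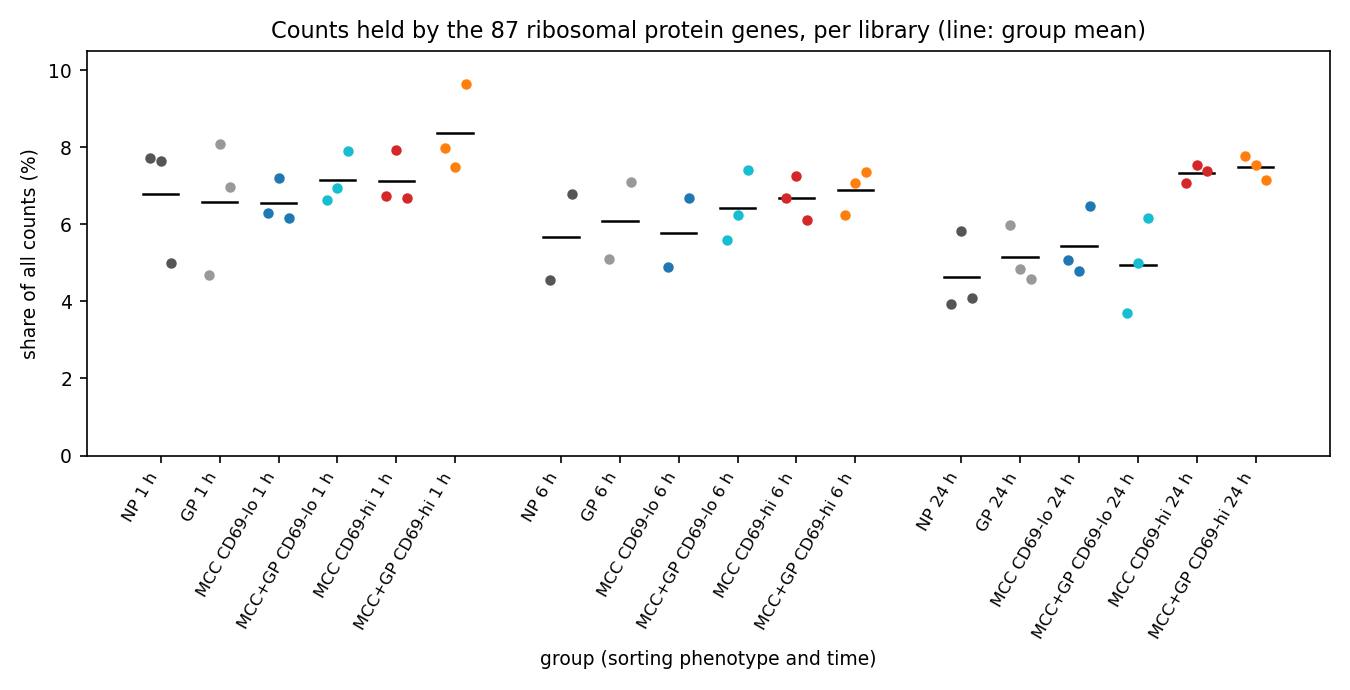
Share of all counts of a library held by the 87 ribosomal protein genes, in percent (y axis), for each of the 18 groups (x axis); each point is 1 library and the bars are group means. The MCC CD69-hi libraries at 24 h sit at 7.08% to 7.54%, above the NP libraries of that time at 3.94% to 5.83%, while at 1 h the groups overlap.

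After 24 h with MCC, CD69-hi cells had higher levels of most ribosomal protein genes than NP cells. Of the 84 members tested, 72 rose and 1 fell at an adjusted p of at most 0.05 (edgeR quasi-likelihood test, Benjamini-Hochberg over 17211 genes), where 57.8% of all genes tested were called, 29.2% as risen and 28.7% as fallen. The median log2 difference was 0.95 over the members and -0.14 over all genes. Of the 31 small subunit genes 25 rose and 1 fell, with a median of 0.80; of the 47 large subunit genes 42 rose and none fell, with a median of 0.99; of the 6 paralogs and copies tested 5 rose, among them the protein-coding Rps27l, Rpl7l1 and Rpl22l1, while the other 3, and Rpl6l among the large subunit genes, are pseudogenes in RefSeq. The levels of 75 members were higher in each of the 3 CD69-hi libraries than in each NP library, as were 34.5% of all genes tested. With RLE size factors the median over all genes moved to -0.29, and 62 members rose and 1 fell. Between groups of the same time, rose and fell mean higher or lower than in the other group, not a change over time. In NP itself the median of the members from 1 h to 24 h was -0.70. In MCC CD69-hi cells that median was 0.22, a direction that depended on the scaling, as given below. In the CD69-hi libraries of 24 h T cell markers summed to 9856 to 10545 CPM against 13640 to 15068 in NP, 15 B cell markers to 162 to 289 CPM against 612 to 850, and 10 erythroid and stroma markers to 10.2 to 19.4 CPM against 326 to 363, with Col3a1 at 0 in both groups and Cdh5 at 0 in CD69-hi cells. The part of these values in the result was not tested.

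Rps2, a small subunit protein near the entry of the messenger RNA channel, had the largest rise of a core subunit gene. It stood at 487, 547 and 702 CPM in NP at 24 h and at 3363, 3400 and 3419 CPM in MCC CD69-hi cells, a log2 difference of 2.55 ± 0.29 (SE, adjusted p = 5.47e-10). The groups were far apart, and the 3 CD69-hi libraries lay close together. Rps12, a small subunit protein known in flies as a factor in cell competition, stood at 321, 326 and 490 CPM against 1470, 1510 and 1583 CPM, a difference of 2.00 ± 0.21 (adjusted p = 1.54e-12). Rps26, which lies at the exit of the messenger RNA, was at 243, 284 and 350 CPM against 902, 919 and 969 CPM, or 1.67 ± 0.22 higher (adjusted p = 5.48e-09). None of these groups overlapped. Rpsa, also known as the laminin receptor precursor, was at 931, 936 and 1390 CPM against 2738, 2753 and 2844 CPM, with a difference of 1.36 ± 0.19 (adjusted p = 1.98e-08).

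Other small subunit genes differed from NP by less. Rps6, the protein that S6 kinase phosphorylates downstream of mTOR, was at 539, 548 and 757 CPM in NP and at 1051, 1085 and 1121 CPM in CD69-hi cells, a log2 difference of 0.82 ± 0.19 (adjusted p = 0.000168). Rps19, the gene most often mutated in Diamond-Blackfan anaemia, was at 347, 400 and 525 CPM against 739, 770 and 780 CPM (0.85 ± 0.25, adjusted p = 0.00304). Rps27a, which is made as a fusion with ubiquitin, rose by 1.35 ± 0.20, the X-linked Rps4x by 0.96 ± 0.19 and Rps3a1 by 0.79 ± 0.18 on the log2 scale. The small subunit genes that did not pass the test included Rps29 (0.26 ± 0.27, adjusted p = 0.427).

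Among the large subunit genes, Rpl7a, Rpl41 and Rpl15 had the largest differences from NP at 24 h. Rpl7a rose by 1.90 ± 0.21 and Rpl41, a very short basic peptide, by 1.82 ± 0.27 on the log2 scale. Rpl15, a core protein needed for ribosomal RNA processing, was at 196, 201 and 269 CPM in NP at 24 h and at 762, 790 and 800 CPM in MCC CD69-hi cells, a difference of 1.82 ± 0.18 (adjusted p = 1.57e-13). Rpl10, which joins late and completes the large subunit, was at 372, 398 and 537 CPM against 1324, 1422 and 1480 CPM (1.69 ± 0.21, adjusted p = 7.08e-10). Neither gene's groups overlapped. Rpl13a, known also for a role in interferon-controlled silencing of translation, was low throughout, at 16.6, 18.1 and 18.9 CPM against 58.5, 59.3 and 63.3 CPM (1.76 ± 0.20, adjusted p = 5.32e-11). Rpl3, which lies at the peptidyl transferase centre, rose by 1.31 ± 0.17.

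Rpl5 and Rpl11, which with 5S ribosomal RNA bind Mdm2 and so restrain its action on p53, were higher than in NP of 24 h. The differences were 0.69 ± 0.18 (adjusted p = 0.000697) and 0.90 ± 0.20 (adjusted p = 0.000133). Rpl36a rose by 1.12 ± 0.21 and Rpl38, a gene known for its part in the translation of Hox messages, by 1.00 ± 0.29. Rpl39, at the exit tunnel, was at 192, 224 and 335 CPM against 366, 381 and 425 CPM and passed the test narrowly (0.64 ± 0.28, adjusted p = 0.0493); without the MCC CD69-hi replicates at 24 h taken 1 at a time, or without NP replicate 1 or 2, its adjusted p was 0.0724 to 0.197. The P stalk genes did not all pass, and the sizes of their differences were not tested against each other. Rplp0 was at 1356, 1360 and 1889 CPM against 3396, 3438 and 3528 CPM (1.17 ± 0.18, adjusted p = 1.75e-07). Rplp2 was at 427, 444 and 688 CPM against 955, 970 and 1024 CPM (0.92 ± 0.34, adjusted p = 0.0221), a call lost without MCC CD69-hi replicate 3 or NP replicate 1 or 2 (adjusted p 0.0514 to 0.0869). Rplp1 was at 840, 951 and 1361 CPM against 1651, 1658 and 1739 CPM, and did not pass (0.68 ± 0.31, adjusted p = 0.0583) although these libraries did not overlap.

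**Figure D2:**
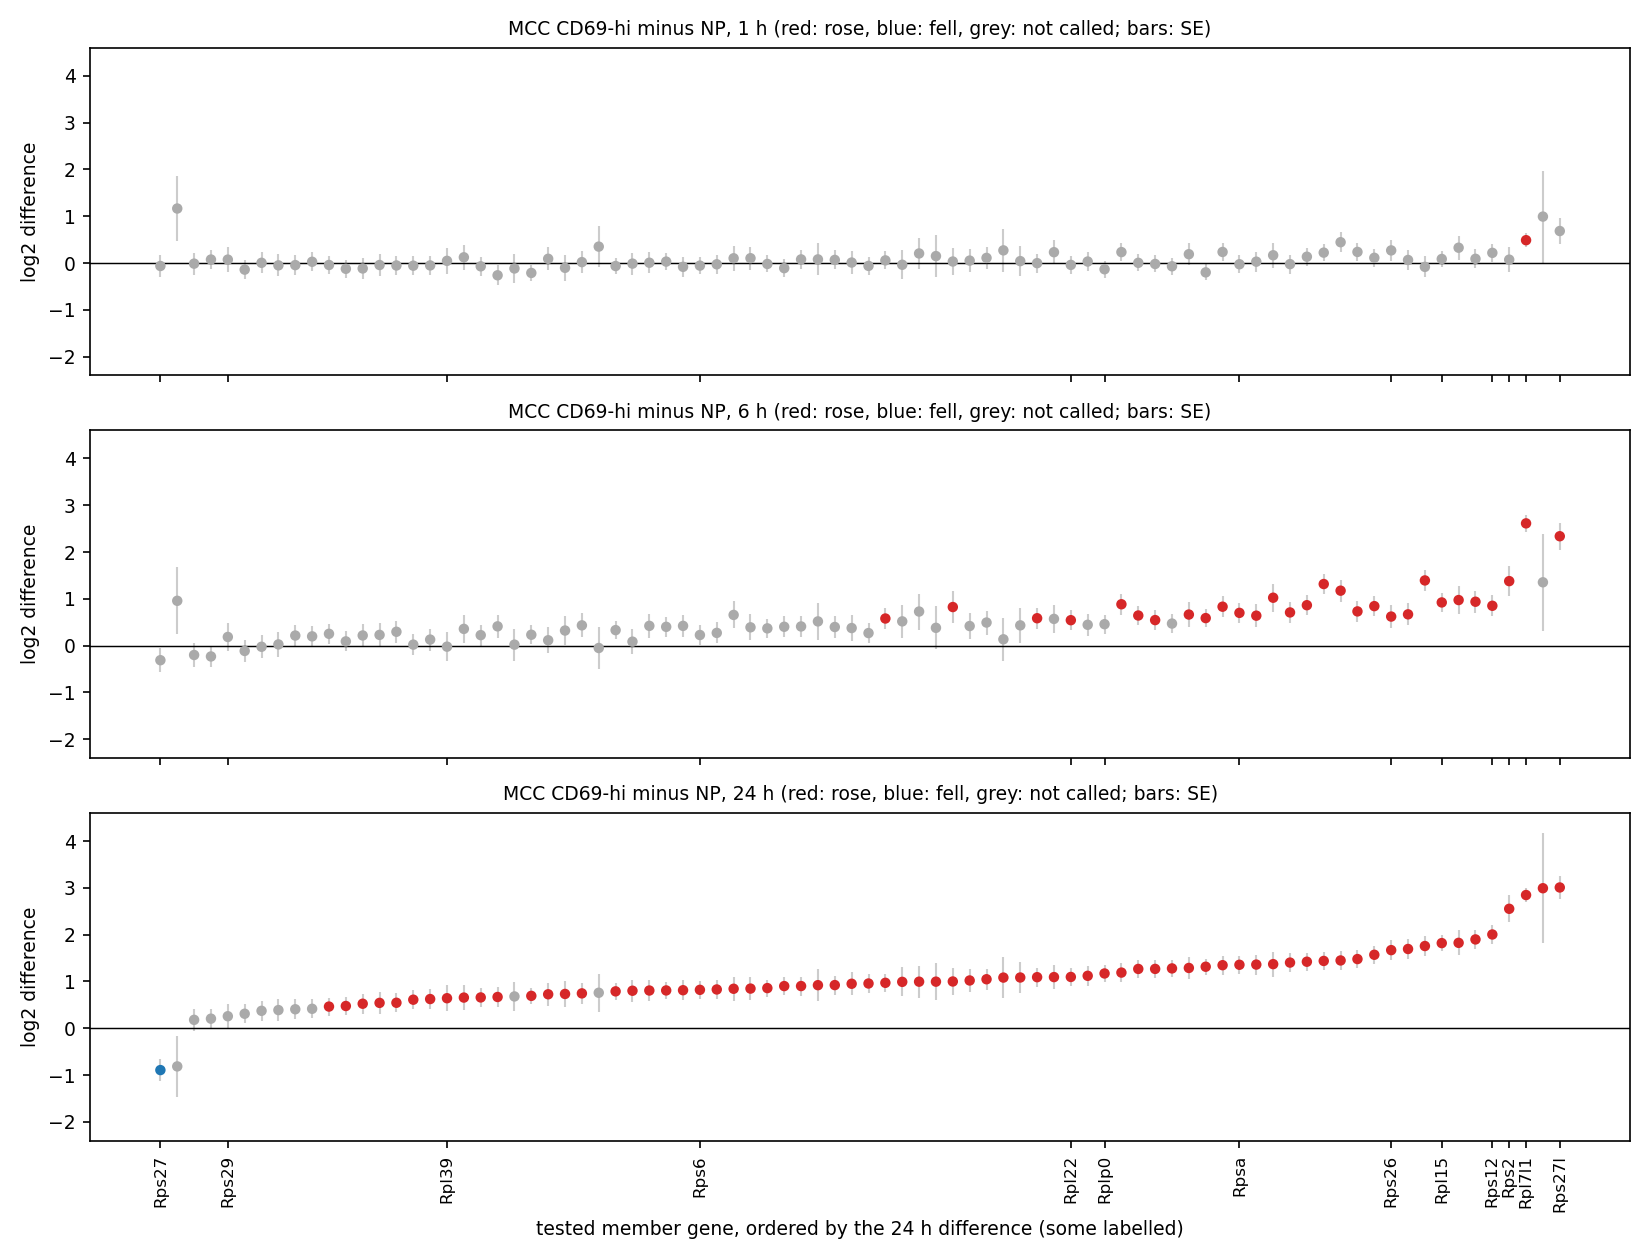
Log2 difference of each of the 84 tested ribosomal protein genes (MCC CD69-hi minus NP, y axis) at 1, 6 and 24 h, with the genes ordered along the x axis by their difference at 24 h; red marks genes that rose, blue genes that fell and grey genes that did not pass an adjusted p of 0.05. The median moves from 0.03 at 1 h to 0.43 at 6 h and 0.95 at 24 h, and at 24 h a single gene, Rps27, is blue.

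Rps27 fell while its paralog Rps27l rose. Both encode the zinc finger protein eS27 of the small subunit, and Rps27l is known as a target of p53. Rps27 (mm10 chr3:90212667-90213648) was at 533, 674 and 924 CPM in NP at 24 h and at 361, 364 and 422 CPM in MCC CD69-hi cells, with no overlap, a log2 difference of -0.89 ± 0.23 (adjusted p = 0.00087). Its level in CD69-hi cells had been 985, 999 and 1033 CPM at 1 h and 529, 676 and 812 CPM at 6 h. It fell by 0.58 ± 0.23 from 1 h to 6 h (adjusted p = 0.0393; 0.0529 without MCC CD69-hi replicate 2 of 1 h and 0.183 without replicate 1 of 6 h) and by 0.82 ± 0.23 from 6 h to 24 h (adjusted p = 0.00401) on the log2 scale. In NP cells it was at 705, 1205 and 1242 CPM at 1 h, and its change to 24 h did not pass the test (-0.56 ± 0.23, adjusted p = 0.0672). The CD69-hi libraries also differed between times in B cell and MHC class II marker sums, given below. The part of those sums in the falls of Rps27 was not tested.

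Rps27l (mm10 chr9:66944624-66949522) was at 11.3, 12.1 and 19.9 CPM in NP at 24 h and at 112, 118 and 123 CPM in MCC CD69-hi cells, the largest rise of any member tested (3.01 ± 0.25, adjusted p = 1.11e-15). At 6 h it was at 16.4 and 18.9 CPM in NP and at 71.8, 96.7 and 99.4 CPM in CD69-hi cells (2.34 ± 0.28, adjusted p = 4.16e-10). At 1 h the values were 8.79, 16.6 and 19.4 CPM against 19.8, 20.7 and 30.3 CPM, which did not overlap but did not pass the test (0.68 ± 0.28, adjusted p = 0.0583). For every 100 counts of Rps27 there were 1.68 to 2.26 counts of Rps27l in NP at 24 h and 27.9 to 33.9 in MCC CD69-hi cells. The ratio in the MCC+GP CD69-hi libraries of that time was 28.2 to 30.9, and in those of GP 2.11 to 2.64. Rps27rt, a retrogene of Rps27, held 1.83 to 2.40 counts per 100 of Rps27 in MCC CD69-hi cells at 24 h and 1.53 to 2.00 in NP.

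The other pairs did not part in this way. Rpl7l1 (mm10 chr17:46773907-46782656), a relative of Rpl7 known from precursors of the large subunit, was at 41.3, 42.4 and 45.6 CPM in NP at 24 h and at 301, 312 and 317 CPM in MCC CD69-hi cells (2.85 ± 0.15, adjusted p = 1.09e-23). Rpl7 itself was at 662, 667 and 956 CPM against 1776, 1799 and 1927 CPM (1.27 ± 0.18, adjusted p = 2.65e-08). Both thus rose. Rpl7l1 counts per 100 of Rpl7 were 4.32 to 6.84 in NP and 15.6 to 17.9 in MCC CD69-hi cells at 24 h, and 19.6 to 24.0 in MCC CD69-hi cells at 6 h. Rpl22 and Rpl22l1, of which Rpl22 is known to be needed for αβ T cell development and to hold back Rpl22l1, both rose at 24 h. Rpl22 (mm10 chr4:152324436-152334082) was at 195, 243 and 338 CPM against 528, 564 and 570 CPM (1.10 ± 0.19, adjusted p = 1.51e-06). Rpl22l1 (mm10 chr3:28805508-28807424) was at 24.7, 27.3 and 29.0 CPM against 71.6, 73.1 and 76.7 CPM (1.45 ± 0.20, adjusted p = 1.34e-08). Their ratio, 8.57 to 14.0 counts of Rpl22l1 per 100 of Rpl22 in NP and 12.7 to 13.8 in CD69-hi cells, overlapped.

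**Figure D3:**
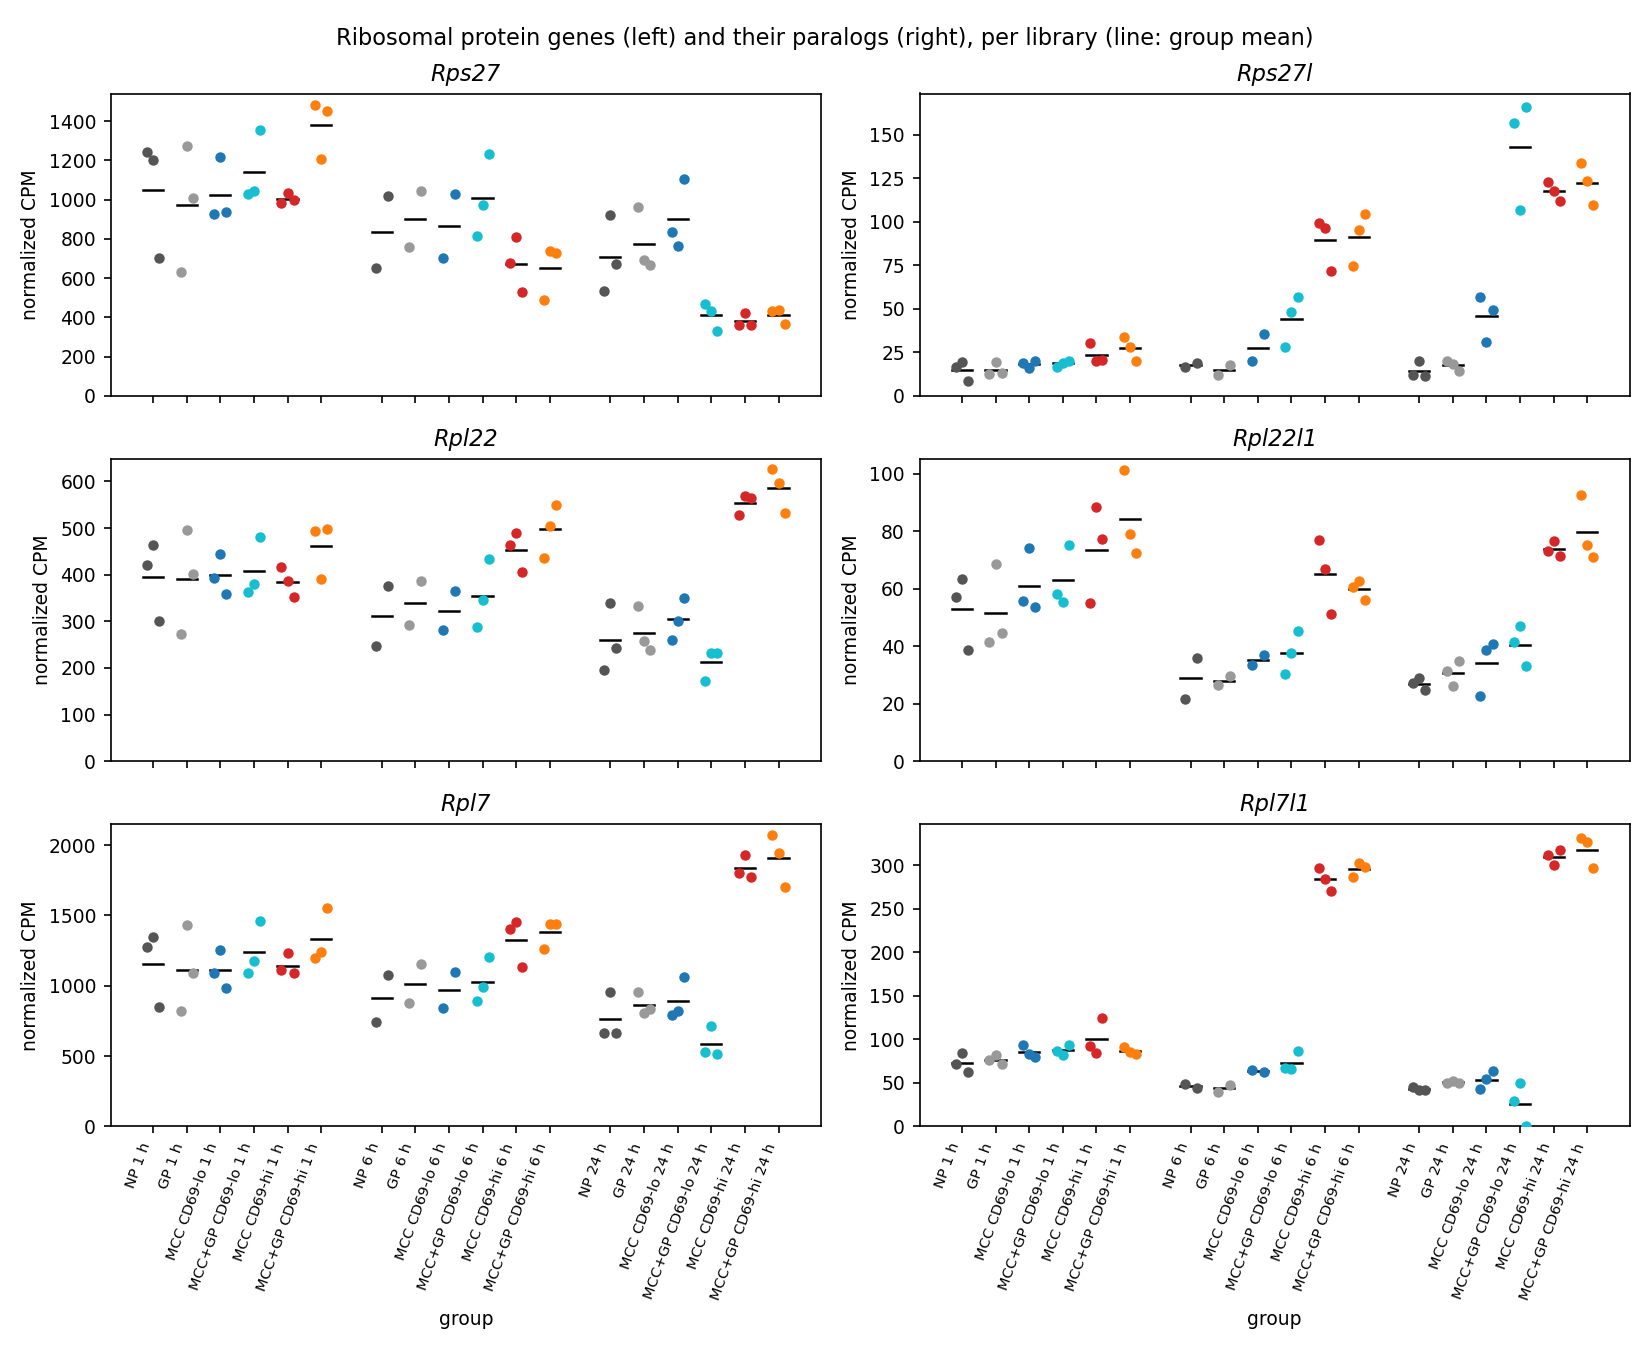
Levels in CPM (y axis) of 3 core genes and their paralogs (Rps27 and Rps27l, Rpl22 and Rpl22l1, Rpl7 and Rpl7l1) in each library, by group. Each point is 1 library. At 24 h Rps27 sits at 361 to 422 CPM in MCC CD69-hi cells and at 533 to 924 CPM in NP, while Rps27l sits at 112 to 123 CPM and 11.3 to 19.9 CPM.

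The balance of small to large subunit counts also differed between the groups. Counts of small subunit genes per count of large subunit genes were 0.799 ± 0.0105 in NP at 1 h, 0.767 ± 0.00557 in NP at 24 h and 0.709 ± 0.00243 in MCC CD69-hi cells at 24 h (SD, n = 3 each). The ranges at 24 h, 0.761 to 0.771 and 0.707 to 0.711, did not overlap, and MCC+GP CD69-hi cells at 24 h had 0.708 ± 0.00502 (SD, n = 3). MCC CD69-lo cells at 24 h had 0.794 ± 0.0148, and the shallow MCC+GP CD69-lo libraries 0.724 ± 0.0207, from 0.701 to 0.740 (SD, n = 3 each). These ratios are given as a description.

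At 6 h the difference was smaller and rested more on single libraries. Of the 84 members 29 rose and none fell in MCC CD69-hi cells against NP, where 23.2% of all genes rose and 23.6% fell, with a median log2 difference of 0.43 over the members and 0.00 over all genes. The members called comprised 9 of 31 small subunit genes, 17 of 47 large subunit genes, none of the 3 P stalk genes and 3 of 6 paralogs. Only 2 NP libraries were compared, and without NP replicate 2 of 6 h 7 members passed the test, against 41 without replicate 1. In those libraries the members took 6.78% and 4.54% of the counts.

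Among the genes that rose at 6 h under all alternatives and with each library left out were Rpl7l1, Rps27l and Rpl13a. Rpl7l1 was at 44.6 and 48.2 CPM in NP and at 271, 285 and 296 CPM in MCC CD69-hi cells (2.61 ± 0.18, adjusted p = 3.89e-19). Rpl13a was at 18.3 and 20.2 CPM against 45.1, 53.0 and 53.5 CPM (1.39 ± 0.23, adjusted p = 8.7e-07). Rpl10a, a large subunit protein also called uL1, rose by 1.32 ± 0.22 (adjusted p = 5.68e-07). Rps2 was at 639 and 907 CPM against 1882, 1900 and 2246 CPM, without overlap (1.38 ± 0.32, adjusted p = 0.000372). Rpsa (0.70 ± 0.22, adjusted p = 0.00615) and Rpl3 (0.59 ± 0.19, adjusted p = 0.00983) passed with both NP libraries, and neither did without replicate 2 (adjusted p = 0.259 and 0.288).

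At 1 h a single member, Rpl7l1, passed the test in MCC CD69-hi cells against NP, where 12.4% of all genes rose and 17% fell. It was at 62.6, 71.3 and 84.6 CPM in NP and at 83.9, 92.9 and 124 CPM in CD69-hi cells, with a slight overlap (0.49 ± 0.15, adjusted p = 0.011). The call was lost without MCC CD69-hi replicate 3 (adjusted p = 0.0659) or NP replicate 3 (adjusted p = 0.0813), and 2 members passed without each of the other libraries except NP replicate 2, without which 3 did. The median over the members was 0.03 and ranged from -0.18 to 0.26 as libraries were left out. In these libraries 15 B cell markers summed to 2583 to 4247 CPM against 487 to 669 CPM in NP, and 7 MHC class II genes to 2840 to 5142 CPM against 323 to 579 CPM, with no marker of either list at 0 throughout a group. Their part in the 1 h values was not tested. Under RLE size factors the genes that rose outnumbered those that fell over all genes (2555 against 2127), where the main scaling gave 2131 against 2922.

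With GP in both groups the course was alike in outline. MCC+GP CD69-hi against GP, which shares no library with the comparison above, gave 9 risen members at 1 h, 25 at 6 h and 64 at 24 h, where 13.7%, 23.5% and 29.5% of all genes rose. No member fell at 1 h or 6 h, where 20.1% and 23.2% of all genes fell, and 1 fell at 24 h, where 29% did. The medians were 0.27, 0.34 and 0.79. At 24 h Rps27 was at 670, 695 and 963 CPM in GP and at 364, 432 and 438 CPM in MCC+GP CD69-hi cells (-0.92 ± 0.23, adjusted p = 0.00066), and it was the member that fell. Rps27l was at 14.2, 18.3 and 20.3 CPM against 110, 123 and 133 CPM (2.79 ± 0.25, adjusted p = 9.01e-15), and Rps2 at 626, 631 and 732 CPM against 2928, 3370 and 3443 CPM (2.29 ± 0.28, adjusted p = 5.49e-09). At 6 h 7 members passed without GP replicate 1 and 13 without MCC+GP CD69-hi replicate 2.

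The 9 members of 1 h moved by small amounts. Rpl23a, which lies at the tunnel exit, had 54.3, 88.1 and 121 CPM in GP and 122, 173 and 195 CPM in MCC+GP CD69-hi cells (0.89 ± 0.27, adjusted p = 0.00973). Rpl41 rose by 0.84 ± 0.26 (adjusted p = 0.0122) and Rps27l by 0.86 ± 0.31 (adjusted p = 0.0255; 0.0774 without GP replicate 3 and 0.0786 without MCC+GP CD69-hi replicate 2). The count was 5 without GP replicate 1 or 3, 43 without GP replicate 2, 14 without MCC+GP CD69-hi replicate 2 and 20 without its replicate 3. It was 46 under RLE size factors, under which 3247 of all genes rose and 2193 fell against 2357 and 3455 in the main scaling. These MCC+GP CD69-hi libraries held 930161 to 1105292 counts, their B cell markers summed to 2392 to 4313 CPM against 511 to 808 CPM in GP, and their MHC class II genes to 2709 to 5689 CPM against 338 to 716 CPM. The part of these values in the result was not tested.

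**Figure D4:**
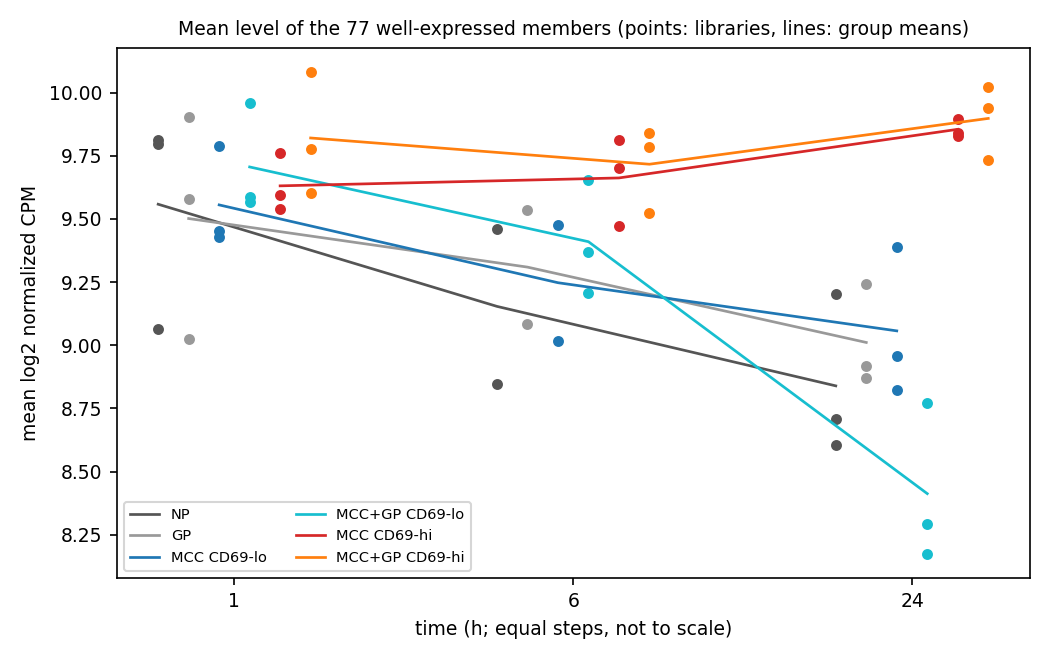
Mean log2 CPM of the 77 ribosomal protein genes with 50 CPM or more (y axis) against time (x axis, with 1, 6 and 24 h set at equal steps) for each sorting phenotype; small points are libraries and lines join group means. The lines of NP, GP and both CD69-lo phenotypes fall from 1 h to 24 h, while those of the CD69-hi groups end near where they began.

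In NP cells most members were lower at 24 h than at 1 h. From 1 h to 24 h in NP, 61 of 84 members fell and none rose, where 12.6% of all genes fell and 11.3% rose, with a median of -0.70 over the members and 0.01 over all genes. Of the small subunit genes 26 of 31 fell, and of the large subunit genes 33 of 47. Rps12 went from 620, 1001 and 1012 CPM to 321, 326 and 490 CPM, without overlap (-1.21 ± 0.20, adjusted p = 4.22e-06). Rps2 went from 921, 1416 and 1513 CPM to 487, 547 and 702 CPM (-1.15 ± 0.27, adjusted p = 0.00153), and Rpl10 from 674, 1003 and 1058 CPM to 372, 398 and 537 CPM (-1.07 ± 0.21, adjusted p = 6.98e-05). The libraries of 24 members were lower at 24 h without overlap, as were those of 21.2% of all genes tested. Mitochondrial genes took 1.06% to 1.54% of the counts in NP at 1 h and 0.599% to 0.952% at 24 h, without overlap, and 1.08% to 1.45% and 0.789% to 0.940% in GP; the part of this in the result was not tested. The count of calls was 27 without NP replicate 1 of 1 h, 28 without replicate 2, and 32 and 34 without replicates 1 and 2 of 24 h.

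In GP cells 32 members fell and none rose from 1 h to 24 h, where 12.4% of all genes fell, with a median of -0.52; this comparison was added after results had been seen. Rps12 (-0.92 ± 0.20, adjusted p = 0.000354), Rps2 (-0.94 ± 0.27, adjusted p = 0.00951) and Rpl10 (-0.88 ± 0.21, adjusted p = 0.0009) were again the members with the largest falls among those whose libraries did not overlap, and Rps2 lost its call without GP replicate 2 of 1 h (adjusted p = 0.099). The count was 52 without GP replicate 1 of 1 h, 3 and 15 without its replicates 2 and 3, and 13 and 12 without replicates 1 and 2 of 24 h. With RLE size factors 22 members fell and none rose, while over all genes 2318 rose and 1733 fell, against 1815 and 2126 in the main scaling.

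In MCC CD69-hi cells the members as a set changed little from 1 h to 6 h. Of 84, 4 rose and 2 fell, where 22.2% of all genes rose and 18.5% fell. The risen genes were Rps27l (1.89 ± 0.26), Rpl7l1 (1.47 ± 0.15), Rpl13a (1.10 ± 0.22) and Rpl10a, and Rps27 was among the fallen ones. With only these groups in the fit 5 rose and 14 fell. The count of 6 was 3 without MCC CD69-hi replicate 2 of 1 h or replicate 1 of 6 h. The first of these libraries held 852129 counts. B cell markers in MCC CD69-hi libraries summed to 2583 to 4247 CPM (1 h), 584 to 1297 CPM (6 h) and 162 to 289 CPM (24 h). Their MHC class II sums were 2840 to 5142 CPM (1 h), 317 to 992 CPM (6 h) and 66.8 to 177 CPM (24 h). The part of these sums in the changes between times, here and in the next paragraph, was not tested.

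From 6 h to 24 h in these cells 9 members rose and 1 fell, where 21.3% of all genes rose and 16.9% fell. Rps2 rose by 0.76 ± 0.27 (adjusted p = 0.0253), Rpl3 by 0.61 ± 0.17 (adjusted p = 0.00361) and Rpl7a by 0.59 ± 0.20 (adjusted p = 0.0181), and Rps27 was the member that fell. Rps2 lost its call without MCC CD69-hi replicate 1 or 2 of 6 h or of 24 h (adjusted p 0.0546 to 0.0904), and Rpl7a without replicate 1 or 2 of 6 h (0.0719 and 0.0566). The count was 2 to 6 without MCC CD69-hi replicate 1 or 2 of 6 h or any replicate of 24 h. From 1 h to 24 h, a comparison added after results had been seen, 22 members rose and 3 fell with a median of 0.22, where 30% of all genes rose and 26% fell. That direction depended on the scaling: RLE size factors gave 12 and 10 with a median of 0.00, and a fit of these groups alone 13 and 29 with a median of -0.13. Leaving out any of the 6 libraries left 13 to 16 members called, against 25 in the main fit. Those fits also differed from the main fit in their dispersion setting, so the drop cannot be credited to single libraries. The members that fell were Rps27 (-1.40 ± 0.23, adjusted p = 1.8e-06), Rps29 (-0.62 ± 0.27, adjusted p = 0.0487; 0.0812 without replicate 2 of 1 h and 0.0646 without replicate 1 of 24 h) and Rpl24 (-1.69 ± 0.71, adjusted p = 0.037; 0.0694 to 0.384 without replicate 1 or 2 of 1 h or replicate 1 of 24 h).

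The difference between MCC CD69-hi and NP cells was larger at 24 h than at 1 h in part of the members. Tested as an interaction, the difference at 24 h was larger than that at 6 h for 10 of 84 members and smaller for none. Of all genes 13.7% passed upward and 9.21% downward, so the count of 10 is no higher than among genes at large. Against 1 h, the difference at 24 h was larger for 49 members and smaller for 1, where 25.6% and 19.4% of all genes passed. The test against 1 h was added after results had been seen. Rps2 (1.17 ± 0.40, adjusted p = 0.0315) and Rps12 (1.15 ± 0.30, adjusted p = 0.00277) had the largest changes of difference from 6 h among the members that passed. The call of Rps12 was lost without NP replicate 1 of 6 h (adjusted p = 0.102), and that of Rps2 without that library, NP replicate 1 or 2 of 24 h or MCC CD69-hi replicate 1 or 2 of 6 h (0.0611 to 0.202). For Rps27l the difference at 24 h did not pass as larger than that at 6 h (0.67 ± 0.36, adjusted p = 0.184), nor did that of Rpl7l1 (0.23 ± 0.22, adjusted p = 0.484). The count of 10 was 0 without NP replicate 1 of 6 h, 19 without its replicate 2, 5 without MCC CD69-hi replicate 1 of 6 h, and 5, 4 and 20 without NP replicates 1, 2 and 3 of 24 h. The count of 50 was 33 without NP replicate 1 or 2 of 1 h, and 35 and 2 under RLE size factors, where 3522 of all genes passed upward and 4126 downward against 4410 and 3345.

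CD69-lo cells with MCC differed from NP cells in few of these genes. No member passed the test at 1 h, where 3.15% of all genes did (2.72% as risen and 0.436% as fallen), or at 6 h, where 2.12% did, all as risen; by edgeR the members with an unadjusted p under 0.05 numbered 0 and 2, and by DESeq2 0 and 1 passed. At 24 h 2 members rose and 1 fell, where 9.83% and 8.65% of all genes did, and the median was 0.24. Rps27l was the firm one, with 31.0, 49.6 and 56.7 CPM in MCC CD69-lo cells against 11.3, 12.1 and 19.9 CPM in NP (1.63 ± 0.27, adjusted p = 6.65e-06), a level between those of NP and CD69-hi cells with overlap with neither. Rps27 was at 764, 834 and 1106 CPM in these cells, and its difference from NP did not pass (0.34 ± 0.23, adjusted p = 0.31).

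The remaining members of that count were near the floor of detection. Rpl24 was at 0, 0 and 0.648 CPM against 1.61, 2.28 and 3.20 CPM (-2.81 ± 1.02, adjusted p = 0.045), a call lost without MCC CD69-lo replicate 1 or 3 or NP replicate 2 or 3 (adjusted p 0.0682 to 0.164), and Rps4l, annotated as a transcribed pseudogene, at 0, 0.509 and 3.56 CPM against 0, 0 and 0.402 CPM (3.54 ± 1.25, adjusted p = 0.0388). The libraries of Rps4l overlapped, and at these counts the size of a fitted difference depends on the prior count of the fit. Its call was lost without MCC CD69-lo replicate 2 (adjusted p = 0.733) or NP replicate 2 or 3 (0.132 and 0.135), and its call in CD69-hi cells at 24 h (2.99 ± 1.18, adjusted p = 0.0262) was lost without MCC CD69-hi replicate 1 or NP replicate 2 or 3. The count of 3 was 8 without NP replicate 3 and 1 without NP replicate 2. In the MCC CD69-lo libraries at 24 h, which held 941304 to 2870776 counts, myeloid and dendritic markers summed to 1335 to 1819 CPM against 562 to 907 CPM in NP, and MHC class II genes to 902 to 1226 CPM against 130 to 442 CPM; no marker of the second list was at 0 throughout, and of the first list Itgam and Xcr1 were at 0 in the CD69-lo libraries and Itgam in NP. Their part in the result was not tested.

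Set directly against CD69-lo cells, MCC CD69-hi cells had no called member at 1 h, where 12.5% of all genes were called, 3.46% as risen and 9.06% as fallen; no member had an unadjusted p under 0.05 by edgeR, and 1 passed by DESeq2. RLE size factors turned the split of all called genes there from 595 risen and 1560 fallen to 910 and 971. At 6 h 21 members rose and none fell, where 19.9% of all genes rose and 22.5% fell, with a median of 0.39 over the members. Without MCC CD69-lo replicate 1, 6 were called. At 24 h 57 rose and 1 fell, where 29.1% rose and 32.6% fell, with a median of 0.73 against -0.20 over all genes; the median was 0.48 with only these groups in the fit. Rps2 differed by 2.67 ± 0.29 (adjusted p = 2.8e-10), Rpl7l1 by 2.49 ± 0.16 (adjusted p = 2.02e-20) and Rpl15 by 1.64 ± 0.18 (adjusted p = 8.83e-12), and Rps27 was lower by 1.24 ± 0.23 (log2 difference -1.24, adjusted p = 1.25e-05). These comparisons share the CD69-hi libraries with those against NP. RLE size factors gave 43 risen and 1 fallen at 24 h. At that time B cell markers summed to 162 to 289 CPM in CD69-hi and 716 to 1561 CPM in CD69-lo libraries, MHC class II genes to 66.8 to 177 and 902 to 1226 CPM, and myeloid and dendritic markers to 463 to 545 and 1335 to 1819 CPM, with Itgam and Xcr1 at 0 in both and Clec9a in CD69-hi. The part of these values in the result was not tested.

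No member was called for GP in cells without MCC or in CD69-hi cells. Over the 3 times, GP against NP gave no called member, where 0% of all genes were called, with a median log2 difference of 0.08; no member had an unadjusted p under 0.05 by edgeR and none passed by DESeq2. Among CD69-hi cells, those with MCC and GP against those with MCC alone gave none either, where 0.0116% of all genes were called, with a median of 0.10, 1 member at an unadjusted p under 0.05 and none by DESeq2. The median standard errors of a member's difference were 0.13 and 0.12, and a difference has to exceed its standard error several times to pass, so smaller shifts may have been missed. In CD69-lo cells, MCC+GP against MCC gave 1 risen member, where 3.53% of all genes rose and 7.47% fell. This was Rps27l (0.76 ± 0.16, adjusted p = 0.00109), at 107, 157 and 166 CPM with MCC and GP at 24 h, in the shallow libraries in which T cell markers were low, and at 28.3, 47.9 and 56.9 CPM at 6 h, where the higher of the MCC CD69-lo libraries had 35.5 CPM. The part of the other markers in the result was not tested; without replicate 3 of those libraries 2 members were called. Under RLE size factors 831 of all genes rose and 867 fell in this comparison, against 607 and 1285.

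Most of the listed ribosome assembly genes were higher in CD69-hi cells at 1 h, and all those tested were at 6 h. This list and those below, like the members, were chosen with results of these data known. They are described for MCC CD69-hi against NP by their counts and medians. Of 41 ribosome assembly genes tested, 29 rose and 2 fell at 1 h, 41 rose at 6 h and 40 at 24 h, with medians of 0.66, 3.20 and 2.84; of all genes 12.4%, 23.2% and 29.2% rose and 17%, 23.6% and 28.7% fell. The 1 h libraries are those with the higher B cell and MHC class II sums given above, whose part in these values was not tested. Ncl, which encodes nucleolin, rose by 0.86 ± 0.18, 3.01 ± 0.23 and 3.69 ± 0.20 at the 3 times. Nolc1, a chaperone of the nucleolus, rose by 1.51 ± 0.19, 4.16 ± 0.25 and 3.68 ± 0.20. Ddx21, an RNA helicase of the nucleolus, rose by 0.96 ± 0.16, 3.47 ± 0.21 and 3.33 ± 0.17, and Mybbp1a by 0.60 ± 0.15, 3.74 ± 0.19 and 3.67 ± 0.16.

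Of the 9 dedicated chaperones and importers of ribosomal proteins tested, 4, 8 and 9 rose, with medians of 0.11, 2.43 and 2.86, where 12.4%, 23.2% and 29.2% of all genes rose. Ipo5, an importin that carries ribosomal proteins to the nucleus, rose by 0.52 ± 0.17, 3.65 ± 0.21 and 3.84 ± 0.18. Nap1l1 rose by 0.43 ± 0.15, 2.11 ± 0.18 and 3.24 ± 0.16, whereas Aamp passed the test at 24 h (0.59 ± 0.17). Elongation factors and other genes with TOP messages behaved more like the members: of 16, 2, 11 and 14 rose, with medians of 0.00, 0.80 and 1.47. At 1 h that count is near the share of all genes that rose. Eef1a1, which brings aminoacyl-tRNA to the ribosome and is the most abundant message of that list, differed by -0.18 ± 0.17, 0.45 ± 0.19 and 0.96 ± 0.17, passing at 6 h and 24 h. Pabpc1, the poly(A) binding protein, rose by 1.05 ± 0.18 at 6 h and 1.63 ± 0.16 at 24 h. Tpt1, a growth-linked protein with a TOP message, was at -0.51 ± 0.24 at 24 h and did not pass (adjusted p = 0.0618).

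Ribosomal genes that the rule does not take gave a like picture. Rack1, a scaffold on the small subunit, rose by 1.18 ± 0.18 at 24 h and Rpl36al, the paralog of Rpl36a, by 1.53 ± 0.22. Fau, a fusion with a small subunit protein, was at 0.12 ± 0.28 (adjusted p = 0.752). Of 15 regulators of TOP translation in the mTOR pathway, 2 rose and 4 fell at 1 h, 7 and 3 at 6 h, and 6 and 2 at 24 h, where 12.4% and 17%, 23.2% and 23.6%, and 29.2% and 28.7% of all genes did. The list is short, and its counts were not tested against these shares. Larp1, which binds TOP messages, rose by 2.34 ± 0.23 at 6 h and 2.62 ± 0.20 at 24 h. Rheb, the activator of mTOR complex 1, rose by 1.92 ± 0.20 at 1 h and 1.62 ± 0.23 at 6 h and was at 0.31 ± 0.20 at 24 h (adjusted p = 0.184). Eif4ebp2, which holds back cap-dependent initiation, fell by 1.08 ± 0.14 at 1 h and 0.87 ± 0.14 at 6 h on the log2 scale and was at -0.25 ± 0.13 at 24 h (adjusted p = 0.0917).

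**Figure D5:**
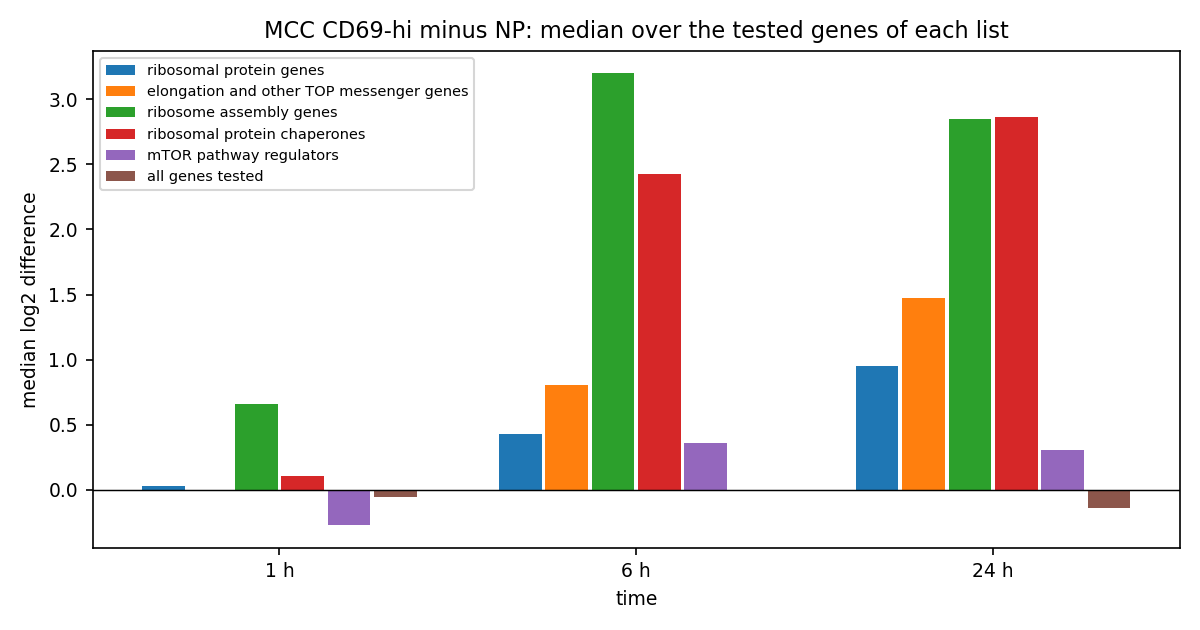
Median log2 difference (MCC CD69-hi minus NP, y axis, bars from 0) of the ribosomal protein genes and of each list of other genes at 1, 6 and 24 h (x axis groups). The assembly genes stand at 0.66, 3.20 and 2.84, above the ribosomal protein genes at 0.03, 0.43 and 0.95.

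In NP cells many genes of 3 of these lists fell from 1 h to 24 h, where 12.6% of all genes fell and 11.3% rose: 29 of 41 assembly genes fell and 2 rose, 7 of 9 chaperones fell and none rose, and 10 of 16 genes with TOP messages fell and none rose, with medians of -0.77, -0.71 and -0.59. The regulators of TOP translation had 2 risen and 3 fallen genes of 15 and a median of -0.02.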

How the data were processed

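Poly-A RNA of sorted cells was sequenced in 51 libraries. The authors deposited counts per gene for each library and a table of TPM values; bcl2fastq 2.20, STAR 2.6.1c, HTSeq 0.9.1 and the mm10 build are named in the submitters' processing notes, and the handling of reads that match several genes or of strand is not given in the sources used here. The columns of the deposited TPM table sum to 9986 to 9996 and were rescaled to 1000000. Counts were fitted with edgeR 4.0.16 (R 4.3.3, limma 3.58.1): TMM factors, filterByExpr by group (17211 genes tested), 1 coefficient for each of 18 groups over all 51 libraries, and quasi-likelihood F tests, two-sided, adjusted by Benjamini-Hochberg over all genes tested with a threshold of 0.05. SE is the log2 difference divided by the square root of F. Shares, ratios of counts and levels per length are given as descriptions; exact permutation tests of the share (6 planned, where 3 against 3 libraries cannot go below 0.1) and of shares and ratios (15 added later) were computed, and their p-values are not printed because the members were chosen with results known.

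Members and lists were chosen with earlier results of these data known. Genes are named by a fixed panel of members and, in each comparison, by up to 3 rising and 3 falling members with the largest difference among those called without overlap; of each other list up to 4 genes with the highest level are named. Some genes that this rule takes are not reported here. Alternatives were RLE size factors, TMM without ribosomal protein genes, no filter on low counts, a block for runs of wells, only the groups compared, DESeq2 1.42.0, each library left out, and, chosen after seeing the data, the 24 h libraries of MCC+GP CD69-lo cells left out. Fits with 1 library left out kept the genes tested and were given the dispersion trend of the complete fit, which the main fit was not. The part of this setting in their counts and lost calls was not tested. The scripts were tested on simulated data. Total counts of 29030 to 10278776 a library set the precision of low members. No pair of libraries of a group agreed within sampling noise (chi-square per degree of freedom 4.17 to 21.7).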

Additional observations from a re-analysis of the deposited data

Results flagged for a closer look

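For some members the size of the difference between MCC CD69-hi and NP cells depended on time by the test of the interaction itself (edgeR quasi-likelihood test, adjusted over all genes). The log2 difference at 24 h minus that at 6 h passed for 10 of 84 members, all upward, where 13.7% of all genes passed upward and 9.21% downward, so the count is no higher than among genes at large; without NP replicate 1 of 6 h none passed. Among the 10 were Rps2 (1.17), Rps12 (1.15), Rps26 (1.05), Rpl10 (1.03), Rpl7a (0.96), Rpl15 (0.90), Rpl3 (0.73), Rpl7 (0.72) and Rplp0 (0.71). Rps12, Rps26, Rpl10 and Rpl15 each lost the call in 1 of the fits with an alternative setting or a library left out, Rpl7a in 2, Rpl3 in 5, Rps2 in 6, Rpl7 in 9 and Rplp0 in 11. The difference at 24 h minus that at 1 h passed for 50 members, 49 of them upward, where 25.6% of all genes passed upward and 19.4% downward; 35 passed upward and 2 downward with RLE size factors, and 33 to 65 passed with 1 library left out.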

How the results depend on the processing

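At 24 h 63 to 74 members were called in MCC CD69-hi against NP under the alternatives, and the fall of Rps27 and the rises of Rps27l, Rpl7l1, Rps2 and Rps12 held under each of them and with each library left out. At 1 h the count of 1 was 2 with no filter, with TMM without ribosomal protein genes and with a block, and 3 with RLE, with DESeq2 and without the MCC+GP CD69-lo 24 h libraries. For MCC+GP CD69-hi against GP at 1 h, 9 became 46 (RLE), 48 (DESeq2), 18 (TMM without ribosomal protein genes), 23 (no filter), 17 (without MCC+GP CD69-lo 24 h) and 20 (only the groups compared, median 0.55). For MCC CD69-lo against NP, 3 at 24 h became 7 (RLE) and 8 (DESeq2), and 0 at 6 h became 1 (DESeq2); DESeq2 also gave 1 for CD69-hi against CD69-lo at 1 h. The median of the 24 h minus 1 h interaction was 0.59 with RLE and DESeq2. No filter gave 34 for CD69-hi against CD69-lo at 6 h and 2 for MCC+GP CD69-lo against MCC CD69-lo. With only the groups compared there were 35 for the former, 19, 24 and 42 for MCC CD69-hi from 1 h to 6 h, 6 h to 24 h and 1 h to 24 h, the last with a median of -0.13; TMM without ribosomal protein genes gave 16 there. From TPM values the ratio of shares, MCC CD69-lo to NP at 6 h, was 0.899 in place of 1.02. The cause of these shifts was not tested.

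Libraries of the same run of wells deviated together in part of the pairs (correlation over 0.1 in 35 of 109 pairs, median 0.07). Libraries of other runs did so in 0 of 210 pairs (median -0.03). The main tests held no term for the runs, so this shared deviation was not taken out of them. With the replicate block the 24 h minus 6 h interaction called 16 members and MCC CD69-hi against NP at 1 h called 2. No other count of members moved by over 1.5 times.

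With 1 library left out, the counts ranged, for MCC CD69-hi against NP, over 0 to 3, 7 to 41 and 59 to 77 at 1, 6 and 24 h (medians -0.18 to 0.26, 0.16 to 0.75 and 0.83 to 1.18); for MCC+GP CD69-hi against GP over 5 to 43, 7 to 28 and 52 to 69 (medians 0.19 to 0.62, 0.13 to 0.57 and 0.70 to 0.94); for MCC CD69-lo against NP over 0 to 0, 0 to 0 and 1 to 8 (medians -0.23 to 0.13, -0.21 to 0.37 and 0.08 to 0.46); for CD69-hi against CD69-lo over 0 to 0, 6 to 28 and 43 to 62 (medians -0.01 to 0.24, 0.19 to 0.62 and 0.65 to 0.93); for 24 h against 1 h over 27 to 76 in NP, 3 to 52 in GP (medians -0.94 to -0.55 and -0.67 to -0.27) and 13 to 16 in MCC CD69-hi; for MCC CD69-hi over 3 to 5 from 1 h to 6 h and 2 to 7 from 6 h to 24 h; for the interactions over 0 to 20 (24 h minus 6 h, medians 0.16 to 0.77) and 33 to 65 (24 h minus 1 h, medians 0.65 to 1.11); for MCC+GP CD69-lo against MCC CD69-lo over 1 to 2. The ratio of shares ranged over 0.926 to 1.13, 0.985 to 1.47 and 1.48 to 1.83 for MCC CD69-hi to NP and 0.853 to 1.04, 0.853 to 1.27 and 1.07 to 1.36 for MCC CD69-lo to NP. The fits behind these counts of members took the dispersion trend of the complete fit, as given above, so a range can lie wholly below the main count. The depth of 29030 to 301455 counts limits what MCC+GP CD69-lo cells at 24 h can show.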
